A study of Mus musculus with 12 samples.

Results

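Axon guidance ligands and their receptors were followed in RNA of myelin purified from mouse brain at 4 ages. The set holds every gene of the normalized read count table whose symbol names a semaphorin of classes 3 to 7, a plexin, a neuropilin, an ephrin, an Eph receptor, a netrin, an UNC5 receptor, a Slit or a Robo, together with Dcc. These were 69 of 21937 genes, 35 ligands and 34 receptors, and the rule uses no measured value. The 12 libraries came from a light-weight membrane fraction that sucrose density gradient centrifugation yields from brain, with 3 libraries each at P18 (postnatal day 18), P75, 6 months and 24 months. The mice were wild type, and the study gives them as male c57Bl6/N. The labels name no transgene, allele or agent for any group, and the groups differ by age. The 6-month libraries came from 3 individual mice. For the other ages the labels give only replicate numbers, and where these are not separate animals the p-values measure a spread that may be technical. The values are read counts per gene divided by a size factor per library, in the following called normalized read counts, and they are not corrected for transcript length.

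Guidance molecules are the signals that steer growing axons and migrating cells. Semaphorins act through plexins, with neuropilins as co-receptors for most secreted class 3 members, ephrins bind Eph receptors on neighbouring cells, netrins attract through DCC and repel through UNC5 receptors, and Slits repel through Robos. In the adult nervous system several of them stay on as membrane cues of oligodendrocytes and neurons, and ephrin-B3 and semaphorins of oligodendrocytes are known to inhibit axon growth on myelin.

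Between 20299052 and 27214385 reads per library fell on genes, and 20593 to 59084 of these fell on the 69 guidance genes. Each of the 69 was detected in every library. Markers of mature oligodendrocytes were abundant at every age, with all 15 above a normalized read count of 100 and Mbp, which encodes myelin basic protein, taking 4.76% to 20.8% of the reads of a library. Markers of neurons, astrocytes and microglia were present as well, so the fraction was not free of RNA of other cells, and in such bulk RNA fewer cells of a type and less RNA per cell cannot be told apart. Their levels are given beside the results.

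The guidance genes rose with age. Their share of the reads was 0.0966% to 0.117% in the P18 libraries, 0.136% to 0.138% at P75, 0.176% to 0.221% at 6 months, and at 24 months 0.176% to 0.215%. Summed over the 69 genes, the normalized read counts were 24470.3 to 26304 at P18, 30599 to 31289 at P75, 42601 to 48002 at 6 months, and at 24 months 42046 to 48779, so that the libraries of P18, P75 and 6 months did not overlap with each other while those of 6 and 24 months did. A mean above 100, the level that the study treats as present, was reached by 49, 51, 57 and 59 of the 69 genes in order of age, against 50.6%, 51.0%, 51.4% and 51.9% of all genes of the table. A mean above 1000 was reached by 6, 8, 16 and 17 of them. Of the 69 genes, 49 had their lowest mean at P18, 16 at P75 and 4 at 6 months, and 0 had it at 24 months. The counts for a mean above 1000 and for the age of the lowest mean were not made over all genes.

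**Figure D1:**
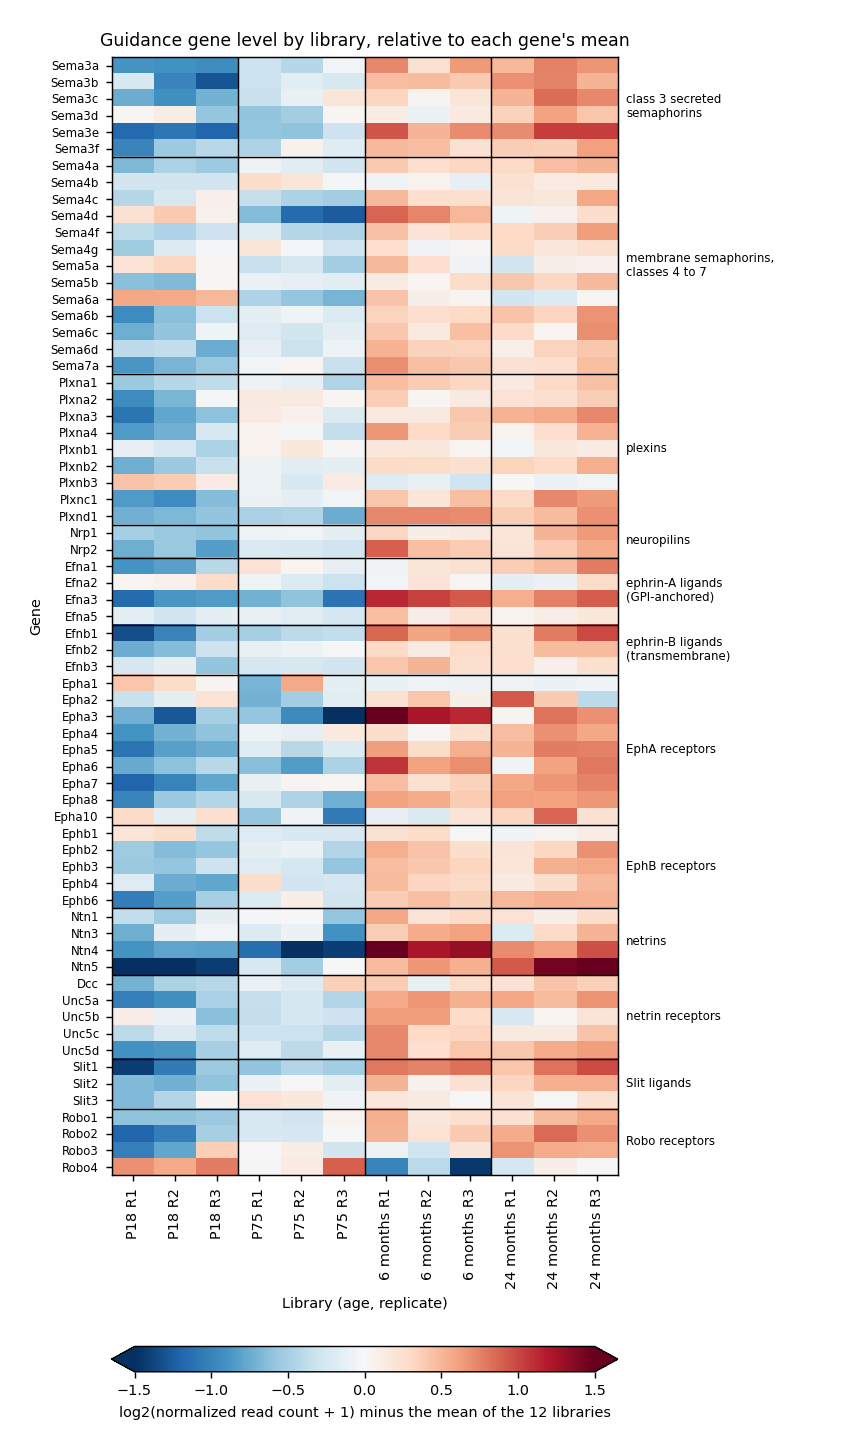
Level of each of the 67 tested guidance genes (vertical axis, grouped by family) in each of the 12 libraries (horizontal axis), as log2(normalized read count + 1) minus the mean of that gene over the 12 libraries. Blue is below and red above the mean of the gene; colours saturate at the ends of the bar. Most families run from blue at P18 to red at 6 and 24 months, whereas Sema4d, Sema5a, Sema6a, Plxnb3 and Robo4 do not.

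Ages were compared with limma on log2(normalized read count + 1) in 1 fit over the 12 libraries. The 14634 genes whose mean reached 10 entered it. Changes were called at a Benjamini-Hochberg adjusted p under 0.1, here called the limma adjusted p, and the values after ± in a log2 change are standard errors. Of the 69 guidance genes 67 passed the filter. Sema3g (means of 1.99 to 7.40 over the 4 ages) and Efna4 (6.0 to 11.6) did not and were not tested. Epha2, Epha10 and Ntn5 had a mean under 10 at 1 age and passed through the other ages. Over the 4 ages together, 64 of the 67 were called changed, where 83.8% of all tested genes were. The 3 not called were Efna2, Epha1 and Epha2.

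From P18 to P75, 37 of the 67 tested guidance genes rose and 7 fell, against 25.9% and 22.9% of all tested genes. Over 2-fold, 1 rose and 2 fell, against 2.82% and 1.73%. From P75 to 6 months, 51 rose and 1 fell, against 31.2% and 29.4% of all tested genes, and over 2-fold 9 rose and 1 fell, against 5.3% and 4%. From 6 to 24 months, 9 rose and 5 fell, against 16.6% and 12.7%. Here 0 genes changed over 2-fold in either direction with limma, edgeR or DESeq2, against 1.22% and 0.465% of all tested genes, and the log2 changes of all 67, called or not, lay between -0.86 and 0.89. From P18 to 24 months, 56 rose and 3 fell, against 34.7% and 34.3%. Over 2-fold, 30 rose and 0 fell in this longest interval, against 14.5% and 3.98%, and the largest fall of a guidance gene was -0.73. The median log2 change of the 67 genes was 0.40, 0.56, 0.06 and 0.96 in these 4 comparisons, and that of all tested genes was 0.02, 0.01, 0.03 and -0.01. The rises of each comparison include Ntn5, which had a mean of 5.08 at P18. It passed the filter only through its later ages and was the 1 gene that rose over 2-fold from P18 to P75. Neighbouring comparisons share the libraries of 1 age, and the last shares libraries with the first and the third, so their values are not independent of each other.

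**Figure D2:**
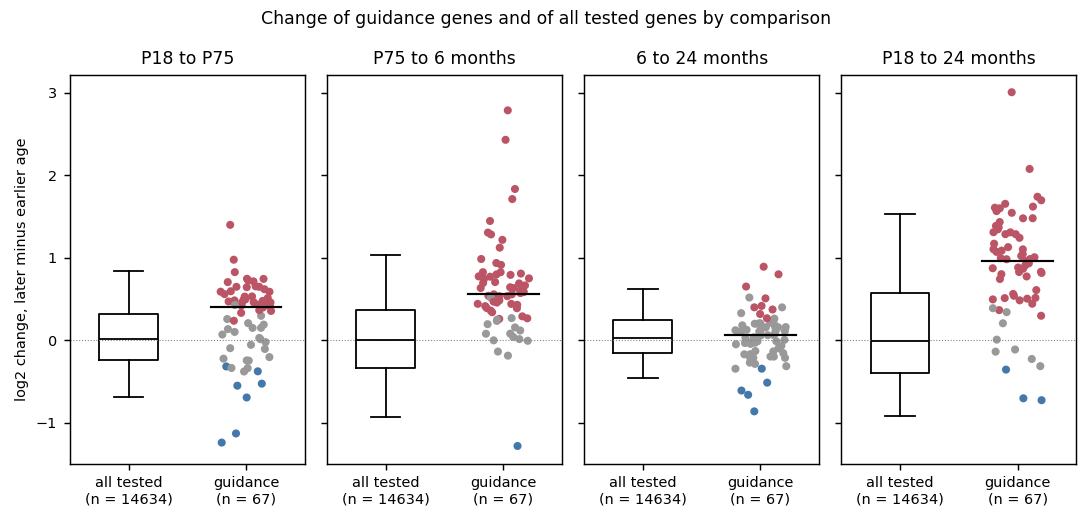
log2 change, later minus earlier age, in the 4 comparisons. Boxes give the quartiles, whiskers the 5th to 95th percentile and the inner line the median of all 14634 tested genes. Points are the 67 tested guidance genes, red if they rose, blue if they fell and grey if not called at a limma adjusted p under 0.1, with a line at their median. The points lie mostly above 0 in all panels but that of 6 to 24 months, where their median is 0.06.

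Ligands and receptors shared in the rises, but not from 6 to 24 months. Of 33 tested ligands, 17, 27, 3 and 29 rose in these comparisons and 5, 0, 3 and 1 fell. Of 34 tested receptors, 20, 24, 6 and 27 rose and 2, 1, 2 and 2 fell. Of all tested genes, 25.9%, 31.2%, 16.6% and 34.7% rose and 22.9%, 29.4%, 12.7% and 34.3% fell. From 6 to 24 months 9.09% of the ligands and 17.6% of the receptors rose. The median change from P18 to 24 months was 0.83 for the ligands and 0.99 for the receptors. When all libraries were scaled to the same total, the median of the 14634 genes moved to 0.14 between P18 and P75, and 39 guidance genes rose and 4 fell. With quantile normalization their median moved to -0.12 between P18 and 24 months, and 53 rose and 5 fell. From 6 to 24 months the direction of the calls depended on the scaling, with 4 genes up and 5 down at the same total. The shares of all tested genes called under these other scalings were not counted, so these counts stand without them.

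Sequences upstream of the transcription start are shown for 4 genes that mark both behaviours. They are the 2 with the largest fall from P18 to P75 and the 2 with the largest rise from P18 to 24 months among called genes that average 100 or more, have a single RefSeq promoter and could be shown here. Capitals mark any of 3 motifs searched on both strands, which may overlap each other: the core that SOX factors bind (ACAAAG), the E-box (CANNTG) and the GC box (GGGCGG). The sequences are from the RefSeq promoter table (GRCm38.p6), were placed by exact match on NCBIM37 (mm9), and end before the first annotated base of the gene.
Sema5a, chr15:32174318-32174567, plus strand: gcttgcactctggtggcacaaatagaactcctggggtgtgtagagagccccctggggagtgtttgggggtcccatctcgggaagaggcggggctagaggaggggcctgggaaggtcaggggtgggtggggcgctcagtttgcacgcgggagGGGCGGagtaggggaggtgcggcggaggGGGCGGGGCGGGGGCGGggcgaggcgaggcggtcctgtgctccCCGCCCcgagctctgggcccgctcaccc
Plxnb3, chrX:71002192-71002428, plus strand: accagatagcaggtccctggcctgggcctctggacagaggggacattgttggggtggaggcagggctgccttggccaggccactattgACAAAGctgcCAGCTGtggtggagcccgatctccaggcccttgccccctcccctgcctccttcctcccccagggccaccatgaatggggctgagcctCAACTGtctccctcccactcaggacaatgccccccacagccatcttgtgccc
Sema3e, chr5:14025026-14025275, plus strand: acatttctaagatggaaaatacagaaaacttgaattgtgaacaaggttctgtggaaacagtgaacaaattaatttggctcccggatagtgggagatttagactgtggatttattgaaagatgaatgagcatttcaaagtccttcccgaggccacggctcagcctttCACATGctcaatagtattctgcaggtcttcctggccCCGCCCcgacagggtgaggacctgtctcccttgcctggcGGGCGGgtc
Efnb1, chrX:96331150-96331399, plus strand: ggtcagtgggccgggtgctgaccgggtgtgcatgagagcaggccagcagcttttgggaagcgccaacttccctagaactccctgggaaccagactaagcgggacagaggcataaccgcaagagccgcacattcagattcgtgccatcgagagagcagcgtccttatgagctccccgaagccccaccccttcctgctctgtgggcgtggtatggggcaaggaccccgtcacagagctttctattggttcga

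The Sema5a run of 250 bases held 5 GC boxes and 17 CpG dinucleotides, and part of it overlaps an annotated noncoding gene on the opposite strand. The Plxnb3 run of 237 bases held 1 SOX core, 2 E-boxes and 1 CpG. The Sema3e run held 1 E-box, 2 GC boxes and 7 CpG, and the Efnb1 run none of the 3 motifs and 13 CpG. Over the 75 RefSeq promoters of 59 guidance genes, taken as the 250 bases before the start, 9.33% held a SOX core, 48.0% an E-box and 70.7% a GC box, against 16.5%, 66.2% and 32.7% of all 32851 promoters of the table. Their median GC content was 64.4% against 52.4%. A match describes these letters and is not a binding site.

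Levels of different genes were compared per length, as normalized read counts per kb of merged exons (mean over the 12 libraries). Efnb3, an ephrin-B ligand of oligodendrocytes and neurons, was highest with 839, followed by Sema7a with 458, Epha4 with 314, Sema6b with 239.5 and Ephb6 with 216. Efnb3 had 659 ± 106, 686 ± 7.79, 1074 ± 99.2 and 935 ± 63.5 per kb at the 4 ages in turn (SD, n = 3). Below these stood Efnb2 with 197, Unc5a with 179, Ephb1 with 177, Efna3 with 160.1, Sema6d with 151, Plxnb1 with 141 and Nrp1 with 133. At the other end Sema3g had 1.01, Epha10 1.83 and Epha2 3.09. The choice of length moves these values. Per kb of the longest transcript the first 4 genes keep their order, but Sema6d stood at 247, Ephb1 at 246 and Epha5 at 219, all above Ephb6 with 217, and Robo2 went from 87.7 to 178. Efna5 carries 2 annotated genes of that name, so its length is the least certain.

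**Figure D3:**
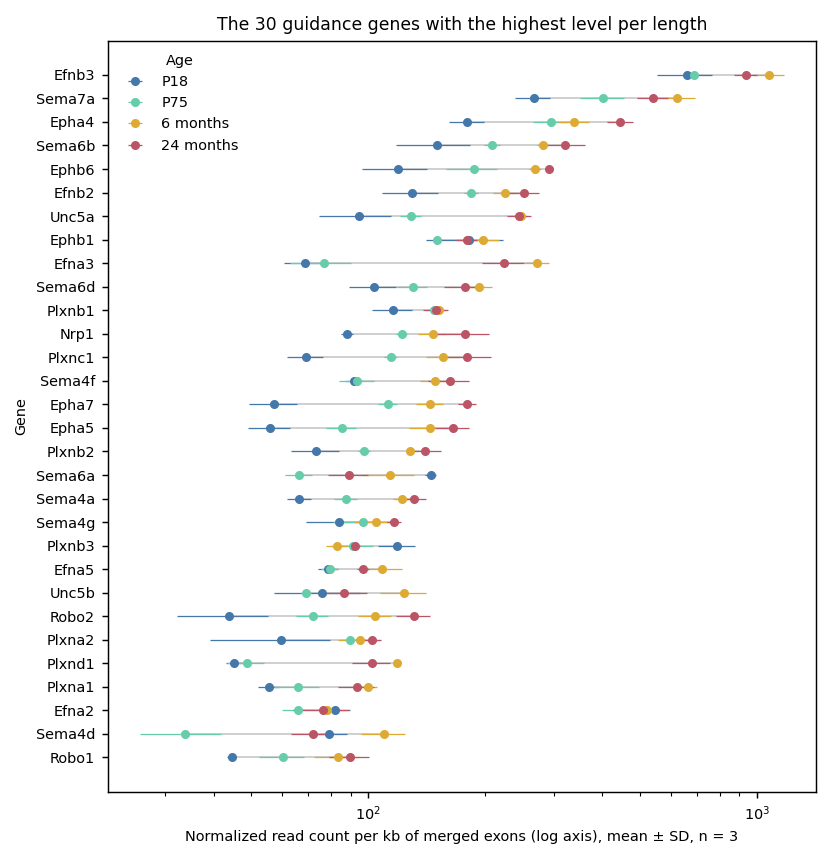
The 30 guidance genes with the highest mean normalized read count per kb of merged exons over the 12 libraries, on a log axis. Points are the mean of 3 libraries at each age and bars the SD. Efnb3 leads at every age, and for most genes P18 lies at the low end, with Sema6a, Plxnb3 and Efna2 highest at P18.

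Class 3 semaphorins are the secreted family. Of 6 tested members, 5, 6 and 1 rose in the 3 intervals between neighbouring ages, against 25.9%, 31.2% and 16.6% of all tested genes. The 1 of 6 in the last interval (16.7%) was thus near the share of all genes. From P18 to 24 months all 6 rose, 5 of them over 2-fold, against 34.7% and 14.5% of all tested genes. Their median log2 change was 1.48. Sema3e, the ligand of plexin-D1, rose most. It lies on chromosome 5 from 14025276 to 14256689 on the plus strand (NCBIM37), and a noncoding transcript on the other strand overlaps it. Sema3e stood at 188, 198 and 184 at P18, 282, 276 and 339 at P75, 809, 600.0 and 687 at 6 months, and 691, 864 and 868 at 24 months. The libraries of P18, P75 and 6 months did not overlap, and those of 6 and 24 months did. Sema3e rose by 0.65 ± 0.12 on the log2 scale from P18 to P75 (limma adjusted p = 0.000636), by 1.22 ± 0.12 between P75 and 6 months (adjusted p = 1.40e-06) and 2.08 ± 0.12 from P18 to 24 months (adjusted p = 1.13e-09).

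Sema3a, a secreted repellent of axons and of oligodendrocyte precursors, lies on chromosome 5 from 13125593 to 13602565 on the plus strand. Its normalized read counts were 171, 168 and 165 at P18, 254, 234 and 307 at P75, 522, 370.1 and 492 at 6 months, and 446, 535 and 499.9 at 24 months. All P18 libraries lay below all P75 libraries, and these below all of 6 months. The log2 change of Sema3a was 0.64 ± 0.13 and 0.79 ± 0.13 in the first 2 intervals (limma adjusted p = 0.00114 and 0.000129) and 0.11 ± 0.13 from 6 to 24 months (adjusted p = 0.599). Sema3c, a close relative, went on rising in old age. It had 273, 242 and 279 at P18, 364, 424 and 521 at P75, 574, 469.6 and 519 at 6 months, and 653, 819.6 and 752 at 24 months. The 24-month libraries were above all others, with 0.51 ± 0.13 from 6 to 24 months (limma adjusted p = 0.0134) and 1.48 ± 0.13 from P18 (adjusted p = 5.64e-08). Its step from P75 to 6 months, 0.27 ± 0.13, was no longer called without P75 replicate 1 (0.14) or 2 (0.25), or 6-month replicate 1 (0.19) or 3 (0.27), or 24-month replicate 3 (0.27).

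Sema3b and Sema3f lie on the same strand of chromosome 9, at 107500005 to 107511560 and 107583833 to 107612806. Sema3b had 58.2, 33.9 and 27.1 at P18, 54.1, 60.3 and 57.5 at P75, 94.2, 95.0 and 89.5 at 6 months, and 110.0, 115 and 97.2 at 24 months. Replicate 1 of P18 stood above the other 2 libraries of its age and among those of P75. Sema3f, the ligand of neuropilin-2, had 51.1, 70.0 and 76.3 at P18, 74.2, 108 and 90.7 at P75, 144, 142 and 121 at 6 months, and 133, 132 and 158 at 24 months. From P18 to 24 months the log2 change was 1.48 ± 0.21 for Sema3b and 1.10 ± 0.17 for Sema3f (limma adjusted p = 1.43e-05 and 3.84e-05), with no overlap of the libraries. The earlier step from P18 to P75, 0.59 ± 0.21 and 0.46 ± 0.17, rested on few libraries. For Sema3b it was not called without P18 replicate 2 (0.51) or 3 (0.36), and it was 0.89 without P18 replicate 1. For Sema3f it was not called without P18 replicate 1 (0.29), or P75 replicate 2 (0.33). Sema3d, the 1 member not called from P18 to P75 (-0.20 ± 0.18, limma adjusted p = 0.384), had means of 230.0, 199, 261 and 345 at the 4 ages. Its step of 0.41 ± 0.18 from P75 to 6 months was not called without P75 replicate 1 (0.30) or 2 (0.33), or 6-month replicate 1 (0.39) or 3 (0.37). Sema3d rose by 0.61 ± 0.18 from P18 to 24 months (limma adjusted p = 0.00719), or by 0.39 without P18 replicate 3.

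Membrane semaphorins of classes 4 to 7 split in their course. From P18 to P75, 5 of the 13 rose and 3 fell (38.5% and 23.1%), against 25.9% and 22.9% of all tested genes. The 3 that fell were Sema4d, Sema5a and Sema6a, all of which oligodendrocytes are known to express. From P75 to 6 months, 10 of the 13 rose, these 3 among them, against 31.2% of all tested genes. Sema4d, the transmembrane ligand of plexin-B1, lies on chromosome 13 from 51796615 to 51889116 on the minus strand and a miRNA gene on the other strand overlaps it. Sema4d stood at 507, 568 and 453 at P18, 277, 195 and 182 at P75, 794, 719.9 and 610.1 at 6 months, and 413, 454 and 522 at 24 months. All P75 libraries were below all others, and all of 6 months above all others, while P18 and 24 months overlapped. Sema4d changed by -1.24 ± 0.15 from P18 to P75 (limma adjusted p = 1.25e-05), by 1.71 ± 0.15 between P75 and 6 months (adjusted p = 3.73e-07), -0.61 ± 0.15 from 6 to 24 months (adjusted p = 0.0115) and -0.14 ± 0.15 from P18 to 24 months (adjusted p = 0.436).

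Sema6a, a transmembrane ligand of plexin-A2 and plexin-A4, is encoded on chromosome 18 from 47395252 to 47528524 on the minus strand. Its normalized read counts were 1300.0, 1280.2 and 1221 at P18, 627, 578 and 534 at P75, 1169.9, 924 and 890.4 at 6 months, and 710.3, 748 and 884 at 24 months. P18 was the highest age in all 3 libraries and P75 the lowest, with no overlap with any other age. Sema6a changed by -1.13 ± 0.11, 0.77 ± 0.11 and -0.34 ± 0.11 over the 3 intervals (limma adjusted p = 2.08e-06, 2.95e-05 and 0.0390) and by -0.70 ± 0.11 from P18 to 24 months (adjusted p = 3.71e-05). The change from 6 to 24 months was not called without 6-month replicate 1 (-0.22), or 24-month replicate 1 (-0.28) or 2 (-0.32). Sema5a, which carries thrombospondin repeats and binds plexin-B3, lies on chromosome 15 from 32174568 to 32626096 on the plus strand. It had 929, 1004 and 824 at P18, 640.4, 675 and 565 at P75, 1133, 957 and 778 at 6 months, and 664, 856 and 843 at 24 months. The P75 libraries were below those of P18 and of 6 months, and 24 months overlapped with P75, P18 and 6 months. The changes were -0.55 ± 0.13 from P18 to P75 and 0.59 ± 0.13 from P75 to 6 months (limma adjusted p = 0.00352 and 0.00138), and the value of 24 months was not called different from P18 (adjusted p = 0.147).

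Over P18 to P75, markers of oligodendrocytes moved in the same direction as these 3 semaphorins. Of the 15 mature oligodendrocyte markers, 9 fell and 2 rose (median log2 change -0.95), and of 10 markers of newly formed oligodendrocytes 9 fell and 1 rose (median -0.94). Of all tested genes, 22.9% fell and 25.9% rose. The summed level of the mature markers was 2501880 to 6236900 at P18 and 1315660 to 1884690 at P75, whereas that of the newly formed markers was 34181.8 to 80875 and 82048 to 120217. Mbp made up most of the mature sum, with means of 3800540 and 1265440. Bcas1, the 1 newly formed marker that rose, made up most of the other, with 46351 and 89688. The part of these markers in the fall of Sema4d, Sema5a and Sema6a was not tested. From P75 to 6 months 5 of the 15 mature markers rose, beside 31.2% of all tested genes, and the other mature markers were not called (median 0.25).

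**Figure D4:**
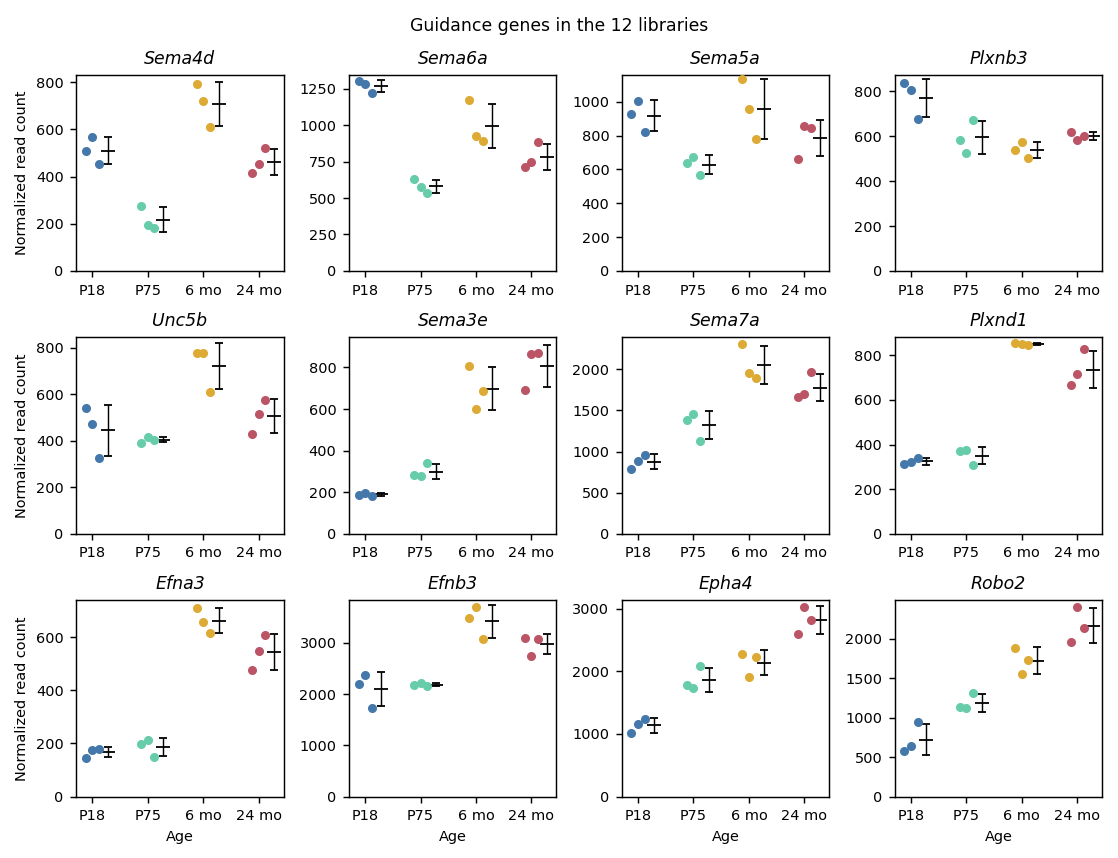
Normalized read counts (vertical axes, from 0) of 12 guidance genes in the 3 libraries of each age, with the mean and SD to the right of each group of points. Sema4d, Sema6a and Sema5a dip at P75, Plxnb3 is highest at P18, Unc5b, Sema4d and Efna3 peak at 6 months, and Sema3e, Epha4 and Robo2 rise with age.

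The other membrane semaphorins rose. Sema7a, which a GPI anchor holds in the membrane and which binds plexin-C1 and integrins, lies on chromosome 9 from 57787920 to 57810671 on the plus strand. Sema7a stood at 782, 884 and 963 at P18, 1388, 1458 and 1132 at P75, 2314, 1954 and 1892 at 6 months, and 1668, 1704 and 1962 at 24 months. Each age up to 6 months lay above the one before it in all libraries, and 24 months overlapped with 6 months. Its log2 change was 0.59 ± 0.11 from P18 to P75, then 0.63 ± 0.11 between P75 and 6 months and 1.02 ± 0.11 from P18 to 24 months (limma adjusted p = 0.000622, 0.000225 and 8.93e-07). Sema6b, on chromosome 17 from 56262508 to 56279766 on the minus strand, had 473, 589 and 728 at P18, 825, 869.7 and 790.4 at P75, 1150.4, 1080.2 and 1115 at 6 months, and 1221, 1141 and 1449 at 24 months. P18, P75 and 6 months did not overlap, and Sema6b rose by 1.10 ± 0.13 from P18 to 24 months (limma adjusted p = 1.26e-06). The rest of this group had smaller changes, from 0.44 (Sema4b) to 0.98 (Sema4a) over the whole span. Sema4a, Sema4c, Sema4f, Sema6c and Sema6d rose from P75 to 6 months, by 0.48, 0.77, 0.66, 0.54 and 0.57. Sema4b, Sema4g and Sema5b were not called in that interval (limma adjusted p = 0.131, 0.481 and 0.144). Sema5b was called there in a fit of these ages alone with the replicate number as a block (limma adjusted p = 0.0377).

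Plexins are the signaling receptors of the semaphorins, and 8 of the 9 rose from P18 to 24 months while Plxnb3 fell. Of all tested genes, 34.7% rose and 34.3% fell over this span. Plxnd1, the receptor of Sema3e, made 1 step. It lies on chromosome 6 from 115904829 to 115945023 on the minus strand and had 311, 323 and 342 at P18, 369, 376 and 306 at P75, 853, 850.3 and 847 at 6 months, and 665, 717 and 827 at 24 months. P18 and P75 overlapped, and all libraries of 6 and 24 months were above them. Plxnd1 changed by 0.10 ± 0.10 from P18 to P75 (limma adjusted p = 0.455) and 1.28 ± 0.10 from P75 to 6 months (adjusted p = 1.60e-07). Sema3e and Plxnd1 thus both rose over 2-fold from P75 to 6 months.

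Plxnb3, the receptor of Sema5a, lies on chromosome X from 71002429 to 71017853 on the plus strand. Plxnb3 stood at 835, 803 and 674 at P18, 584, 527 and 671 at P75, 539, 572 and 503 at 6 months, and 617, 581 and 602 at 24 months. All P18 libraries were above all others, though P18 replicate 3 and P75 replicate 3 were nearly equal. It fell by 0.38 ± 0.10 on the log2 scale from P18 to P75 (limma adjusted p = 0.00886) and by 0.36 ± 0.10 from P18 to 24 months (adjusted p = 0.00733). Between P75 and 6 months its change was -0.14 ± 0.10 (adjusted p = 0.283), whereas Sema5a rose in that interval. Plxnb1, the receptor of Sema4d, had 1148, 1061 and 904 at P18, 1297, 1402 and 1269 at P75, 1397, 1399.8 and 1283 at 6 months, and 1221, 1408 and 1370.0 at 24 months. The P18 libraries lay below all others, and the later ages overlapped. Plxnb1 rose by 0.36 ± 0.09 from P18 to P75 (limma adjusted p = 0.00679), the interval in which its ligand Sema4d fell, and changed by 0.04 ± 0.09 from P75 to 6 months (adjusted p = 0.740).

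Plxnc1, the receptor of Sema7a, had 473, 444 and 543 at P18, 806, 772 and 834 at P75, 1144, 973 and 1168 at 6 months, and 1049, 1414 and 1329 at 24 months. It rose like its ligand in the first 2 intervals, by 0.73 ± 0.11 and 0.44 ± 0.11 (limma adjusted p = 0.000120 and 0.00392), and P18, P75 and 6 months did not overlap. Plxna3, a receptor of class 3 semaphorins, had 135, 169 and 191 at P18, 318, 306 and 253 at P75, 323, 321 and 386 at 6 months, and 419, 435 and 479 at 24 months. P18 was lowest in all libraries and 24 months highest. Plxna3 rose by 0.83 ± 0.13 from P18 to P75 and 1.43 ± 0.13 from P18 to 24 months (limma adjusted p = 0.000150 and 1.16e-07). Plxna4, a receptor of class 3 and class 6 semaphorins, had 424, 464 and 649.9 at P18, 795, 753 and 600.3 at P75, 1208, 945 and 1002 at 6 months, and 796, 918 and 1099.7 at 24 months. P18 replicate 3 lay among the P75 libraries, and all of 6 months were above those of P75. The log2 change of Plxna4 was 0.50 ± 0.16 and 0.56 ± 0.16 (limma adjusted p = 0.0190 and 0.00711). Plxna1, Plxna2 and Plxnb2 rose from P18 to 24 months by 0.74 ± 0.11, 0.83 ± 0.16 and 0.93 ± 0.10. Plxna2 took its step from P18 to P75 (0.65 ± 0.16) and Plxna1 its main step from P75 to 6 months (0.60 ± 0.11).

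Both neuropilins, the co-receptors of class 3 semaphorins, rose. Nrp1, on chromosome 8 from 130882973 to 131029362 on the plus strand, had 539, 515 and 504 at P18, 729, 739 and 693 at P75, 946, 807 and 838 at 6 months, and 866, 1083 and 1188 at 24 months. P18, P75 and 6 months did not overlap, and the log2 change from P18 to 24 months was 1.0 ± 0.11 (limma adjusted p = 5.45e-07). Nrp1 rose by 0.26 ± 0.11 from P75 to 6 months, a call that was lost without P75 replicate 3 (0.23), or 6-month replicate 1 (0.19). Nrp2 had 144, 163 and 136 at P18, 207, 205 and 195 at P75, 448, 329 and 314 at 6 months, and 275, 315 and 355 at 24 months. Replicate 1 of 6 months was the highest library, and every library of 6 and 24 months was above those of P18 and P75. Nrp2 rose by 0.83 ± 0.14 from P75 to 6 months and 1.09 ± 0.14 from P18 to 24 months (limma adjusted p = 0.000116 and 3.69e-06).

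Ephrins are membrane-bound ligands, the A type held by a GPI anchor and the B type spanning the membrane. From P18 to 24 months 3 of 4 tested ephrin-A and 3 of 3 ephrin-B genes rose, against 34.7% of all tested genes. Efnb3, the most abundant guidance gene, lies on chromosome 11 from 69367594 to 69373707 on the minus strand. Efnb3 stood at 2191, 2381 and 1726 at P18, 2181, 2209 and 2160.1 at P75, 3476, 3701 and 3078 at 6 months, and 3105, 2743 and 3079.7 at 24 months. P18 and P75 overlapped and all libraries of 6 and 24 months were above them. Its log2 change was 0.07 ± 0.11 from P18 to P75 (limma adjusted p = 0.636), then 0.64 ± 0.11 between P75 and 6 months (adjusted p = 0.000131) and 0.51 ± 0.11 from P18 to 24 months (adjusted p = 0.000577). Efnb2 had 544, 579.6 and 736 at P18, 847, 869 and 918 at P75, 1123, 993 and 1106 at 6 months, and 1074, 1267 and 1264 at 24 months. P18 lay below P75 and P75 below 6 months in all libraries, and the change from P18 to 24 months was 0.96 ± 0.11 (limma adjusted p = 1.08e-06). Efnb1, on chromosome X from 96331469 to 96344330 on the plus strand, had 49.9, 63.3 and 88.4 at P18, 90.2, 96.4 and 98.4 at P75, 232, 193 and 201 at 6 months, and 151, 218 and 255 at 24 months. The P18 and P75 libraries were all below those of 6 and 24 months. Efnb1 rose by 1.12 ± 0.20 from P75 to 6 months and 1.62 ± 0.20 from P18 to 24 months (limma adjusted p = 0.000210 and 2.81e-06). Its earlier step of 0.53 ± 0.20 was not called without P18 replicate 1 (0.34), or P75 replicate 3 (0.51).

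Efna3 had the largest rise of the ephrins. It lies on chromosome 3 from 89117821 to 89126887 on the minus strand, on the same strand of chromosome 3 as Efna1 and Efna4, and a noncoding gene on the other strand overlaps it. Efna3 stood at 145, 176 and 179.8 at P18, 197, 213 and 149 at P75, 711, 658 and 616 at 6 months, and 475, 549 and 608 at 24 months. P18 and P75 overlapped, 6 months was highest in all libraries, and 24 months lay between. The log2 change was 1.83 ± 0.14 from P75 to 6 months (limma adjusted p = 9.29e-08) and -0.29 ± 0.14 from 6 to 24 months (adjusted p = 0.149). Its neighbour Efna1, at 89075655 to 89085064, took another course. Efna1 had 57.0, 59.9 and 79.3 at P18, 123, 108 and 97.3 at P75, 102, 121 and 125 at 6 months, and 138, 148 and 180.5 at 24 months. P18 was below all other libraries, P75 and 6 months overlapped and 24 months was highest. Efna1 rose by 0.75 ± 0.16 from P18 to P75 (limma adjusted p = 0.00161) and changed by 0.08 ± 0.16 from P75 to 6 months (adjusted p = 0.694). Efna5 had means of 318, 321, 438 and 391 at the 4 ages and rose from P75 to 6 months by 0.44 ± 0.10 (limma adjusted p = 0.00195). Efna2 had 175, 140.2, 167 and 163 and was not called over the 4 ages together. Its fall of 0.32 ± 0.14 from P18 to P75 was lost without P18 replicate 3 (-0.24), or P75 replicate 2 (-0.31) or 3 (-0.26). Efna4, with 11.6, 7.17, 6.0 and 9.92, was too low to be tested.

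EphA receptors fell into abundant and rare members. Epha4, which binds both ephrin types and ephrin-B3 among them, lies on chromosome 1 from 77363760 to 77511663 on the minus strand. Epha4 stood at 1012, 1157 and 1243 at P18, 1784, 1729 and 2086 at P75, 2269, 1911 and 2226 at 6 months, and 2593, 3033 and 2817 at 24 months. P18 was below and 24 months above all other libraries, and P75 and 6 months overlapped. The log2 change was 0.71 ± 0.10 from P18 to P75, then 0.20 ± 0.10 between P75 and 6 months and 0.40 ± 0.10 from 6 to 24 months (limma adjusted p = 6.17e-05, 0.122 and 0.0148). With the replicate number as a block in a fit of P75 and 6 months alone, the step between these ages was called (limma adjusted p = 0.0378). Efnb3, its ligand, changed by 0.07 ± 0.11, 0.64 ± 0.11 and -0.20 ± 0.11 over the same intervals, and the difference between both genes was not tested.

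Epha5 and Epha7, receptors of ephrin-A ligands, rose in both early intervals. Epha5 had 481, 585 and 614 at P18, 906, 770.5 and 899 at P75, 1591, 1253 and 1501 at 6 months, and 1467, 1760.2 and 1742 at 24 months. Epha7 had 491, 558 and 649.9 at P18, 1035, 1148 and 1144 at P75, 1540.4, 1307 and 1426 at 6 months, and 1677, 1772 and 1873 at 24 months. For both genes P18, P75 and 6 months did not overlap. From P18 to 24 months Epha5 changed by 1.57 ± 0.12 and Epha7 by 1.65 ± 0.10 (limma adjusted p = 1.00e-08 and 1.56e-09). Epha7 made its larger step from P18 to P75 (0.98 ± 0.10) and Epha5 rose by 0.62 ± 0.12 and 0.75 ± 0.12. Epha6, on chromosome 16 from 59653309 to 60605357 on the minus strand, had 49.9, 55.4 and 63.3 at P18, 54.1, 47.3 and 60.8 at P75, 182, 129.6 and 138 at 6 months, and 82.2, 129.8 and 148 at 24 months. Its P18 and P75 libraries overlapped, and all of 6 and 24 months were above them and overlapped with each other. Epha6 rose by 1.45 ± 0.20 from P75 to 6 months (limma adjusted p = 2.60e-05). Epha8 had 59.4, 80.2 and 87.4 at P18, 100.2, 86.2 and 71.9 at P75, 181, 175 and 155 at 6 months, and 182, 182 and 187 at 24 months. All libraries of 6 and 24 months were above those of P18 and P75, with a step of 0.99 ± 0.16 from P75 to 6 months (limma adjusted p = 8.38e-05).

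Epha3, on chromosome 16 from 63543364 to 63863984 on the minus strand, was rare and had its highest level at 6 months. Its normalized read counts were 15.4, 10.2 and 18.1 at P18, 17.0, 13.0 and 7.74 at P75, 91.0, 62.1 and 58.4 at 6 months, and 26.8, 46.5 and 42.6 at 24 months. P18 and P75 overlapped, all of 6 months were above all others and 24 months lay between. Epha3 changed by 2.43 ± 0.31 from P75 to 6 months (limma adjusted p = 1.03e-05) and -0.86 ± 0.31 from 6 to 24 months (adjusted p = 0.0606), the latter not called without 6-month replicate 1 (-0.67) or 2 (-0.94), or 24-month replicate 1 (-0.62). Epha1, Epha2 and Epha10, the last of which lacks kinase activity, had means from 8.53 to 22.2 at all ages and no call from P18 to 24 months (limma adjusted p = 0.359, 0.323 and 0.372). The fall of Epha10 from P18 to P75 (-0.69 ± 0.32) was lost without any of 10 of the 12 libraries (-0.69 to -0.45), and the rise of Epha2 from P75 to 6 months (0.71 ± 0.33) was lost without P75 replicate 1 (0.58) or 2 (0.68), or 6-month replicate 1 (0.71) or 2 (0.62) or 3 (0.78), or 24-month replicate 2 (0.71).

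EphB receptors, which mainly bind ephrin-B ligands, rose from P75 to 6 months, with 5 of 5 called, against 31.2% of all tested genes. Ephb6, a member without kinase activity, lies on chromosome 6 from 41555481 to 41570508 on the plus strand. Ephb6 stood at 372, 432 and 542 at P18, 662, 823 and 623 at P75, 1000.1, 1050.0 and 985 at 6 months, and 1084, 1113 and 1104 at 24 months. P18, P75, 6 months and 24 months followed each other with no overlap. The log2 change was 0.65 ± 0.12 from P18 to P75, then 0.53 ± 0.12 between P75 and 6 months and 1.31 ± 0.12 from P18 to 24 months (limma adjusted p = 0.000550, 0.00172 and 1.32e-07). Ephb2 rose from 139 ± 5.83 at P18 to 279 ± 50.8 at 24 months, Ephb3 from 179.7 ± 19.3 to 339.5 ± 49.0 and Ephb4, with Zan overlapping on the other strand, from 37.9 ± 9.40 to 69.0 ± 8.80 (SD, n = 3). The rise of Ephb4 from P75 to 6 months (0.46 ± 0.20) was lost without P75 replicate 2 (0.36) or 3 (0.38), or 6-month replicate 1 (0.40) or 2 (0.48). Ephb1, with 177 per kb of merged exons against 216 for Ephb6 but 246 against 217 per kb of the longest transcript, had 1176 ± 266, 974 ± 16.3, 1279 ± 127 and 1162 ± 72.6 at the 4 ages. Its change from P18 to 24 months was 0.01 ± 0.13 (limma adjusted p = 0.964).

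Ntn1, Ntn3 and Ntn4 rose from P75 to 6 months and from P18 to 24 months. Ntn5 was called in both as well, but it passed the filter only through its later ages. Ntn4, a netrin of basement membranes, lies on chromosome 10 from 93103426 to 93209952 on the plus strand and had the largest change of all guidance genes between neighbouring ages. Ntn4 stood at 17.8, 19.2 and 19.1 at P18, 15.0, 11.1 and 12.2 at P75, 118, 80.8 and 85.6 at 6 months, and 56.5, 53.0 and 67.6 at 24 months. P75 was below all other libraries, 6 months above all others and 24 months between P18 and 6 months. Ntn4 rose by 2.79 ± 0.21 from P75 to 6 months (limma adjusted p = 8.75e-08). The falls of 0.53 ± 0.21 from P18 to P75 and 0.66 ± 0.21 from 6 to 24 months rested on few libraries, the former being lost without P18 replicate 2 (-0.51), or P75 replicate 2 (-0.44) or 3 (-0.50) and the latter without 6-month replicate 1 (-0.50), or 24-month replicate 2 (-0.59). Annotated noncoding transcripts on both strands overlap Ntn4, and whether their reads were counted with it was not tested.

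Ntn1, the founding member and an attractant through DCC, had 162, 144 and 188 at P18, 205, 209 and 139 at P75, 313, 241 and 254 at 6 months, and 242, 222 and 251 at 24 months. P75 replicate 3 was the lowest library, and all of 6 months were above all of P75. Ntn1 rose by 0.56 ± 0.16 from P75 to 6 months (limma adjusted p = 0.00701), or by 0.37 without P75 replicate 3. Ntn5 was rare, with 5.08 ± 1.33, 14.9 ± 2.82, 26.6 ± 1.63 and 48.2 ± 12.8 at the 4 ages (SD, n = 3). It passed the filter on low values only through the later ages, where it was high, so its values are given as a description. Sec1 on the other strand overlaps Ntn5. Ntn3 had 70.8, 66.7, 123 and 101 at the 4 ages. It shares its strand with Tbc1d24, which overlaps it, and its rise from P18 to 24 months (0.50 ± 0.24) was lost without P18 replicate 1 (0.29), or 24-month replicate 2 (0.46) or 3 (0.35).

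Netrin receptors differed in their course. Dcc, the attractive receptor, lies on chromosome 18 from 71418392 to 72510723 on the minus strand. Dcc had 183, 216 and 223 at P18, 279.6, 263 and 385 at P75, 392, 279 and 359 at 6 months, and 349, 404 and 386 at 24 months. P18 was below all other libraries, and the later ages overlapped. Dcc rose by 0.56 ± 0.15 from P18 to P75 and 0.87 ± 0.15 from P18 to 24 months (limma adjusted p = 0.00699 and 9.25e-05), and 0.16 ± 0.15 from P75 to 6 months was not called (adjusted p = 0.397). The 4 UNC5 genes all rose in that interval, against 31.2% of all tested genes. Unc5a, on chromosome 13 from 55050772 to 55107379 on the plus strand, was the highest netrin receptor per length. Unc5a stood at 334, 359 and 489 at P18, 538, 569 and 502 at P75, 1014, 1076 and 991 at 6 months, and 1019, 947 and 1091 at 24 months. P18 was below P75 and P75 below 6 months in all libraries, with 0.94 ± 0.12 from P75 to 6 months and 1.39 ± 0.12 from P18 to 24 months (limma adjusted p = 9.61e-06 and 4.70e-08). Hk3 overlaps Unc5a on the other strand.

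Unc5b, a receptor of netrin-1 that oligodendrocytes and endothelial cells are known to express, lies on chromosome 10 from 60225358 to 60294329 on the minus strand. Unc5b had 541, 472 and 324 at P18, 393, 417 and 406 at P75, 779.9, 779 and 610.1 at 6 months, and 429.9, 515 and 575 at 24 months. P18 was widely spread and overlapped with P75, all of 6 months were above all others, and 24 months overlapped with P18. Unc5b changed by 0.82 ± 0.16 from P75 to 6 months (limma adjusted p = 0.000399) and -0.51 ± 0.16 from 6 to 24 months (adjusted p = 0.0332), the latter being lost without 6-month replicate 1 (-0.45) or 2 (-0.46), or 24-month replicate 1 (-0.40). Unc5d had 296, 305 and 395 at P18, 489, 424 and 518 at P75, 921, 665 and 745 at 6 months, and 737, 819.6 and 859.9 at 24 months. It rose by 1.29 ± 0.13 from P18 to 24 months (limma adjusted p = 3.73e-07), with P18, P75 and 6 months not overlapping. Unc5c had means of 390.1, 384, 673 and 578 and rose by 0.80 ± 0.12 from P75 to 6 months (adjusted p = 3.88e-05).

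Slits and Robos rose with age except for Robo4. Slit1, on chromosome 19 from 41674747 to 41818155 on the minus strand, had 63.0, 81.3 and 116 at P18, 112, 124 and 117 at P75, 294, 284 and 299.7 at 6 months, and 226, 299.5 and 334 at 24 months. P18 replicate 3 lay among the P75 libraries, and all of 6 and 24 months were above both. Slit1 rose by 1.31 ± 0.18 from P75 to 6 months and 1.74 ± 0.18 from P18 to 24 months (limma adjusted p = 2.24e-05 and 4.44e-07). Slit2 had 169.9, 163 and 177 at P18, 254, 269 and 245 at P75, 383, 280.5 and 316 at 6 months, and 338, 390.3 and 392 at 24 months. P18 was below P75 and P75 below 6 months in all libraries, and the change from P18 to 24 months was 1.13 ± 0.12 (limma adjusted p = 4.25e-07). Its step of 0.34 ± 0.12 from P75 to 6 months was not called without 6-month replicate 1 (0.22). Slit3 had means of 110.4, 149, 149 and 153, and its rise of 0.50 ± 0.16 from P18 to 24 months (limma adjusted p = 0.0124) was the smallest of the 3. Slit2 and Slit3 host miR-218 genes on their own strand.

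Robo2, the most abundant Robo, lies on chromosome 16 from 73892551 to 74412070 on the minus strand. Robo2 stood at 582, 644 and 940.1 at P18, 1129, 1116 and 1316 at P75, 1882, 1545 and 1734 at 6 months, and 1958, 2394 and 2133 at 24 months. The 4 ages followed each other with no overlap. Its log2 change was 0.74 ± 0.14 from P18 to P75, then 0.53 ± 0.14 between P75 and 6 months and 1.61 ± 0.14 from P18 to 24 months (limma adjusted p = 0.000649, 0.00490 and 7.12e-08). Robo1 had 418, 418 and 438 at P18, 545, 521 and 662 at P75, 919, 718 and 756 at 6 months, and 745, 886 and 944 at 24 months. P18, P75 and 6 months followed each other with no overlap, and Robo1 rose by 1.01 ± 0.12 from P18 to 24 months (limma adjusted p = 1.50e-06). Robo3, known from commissural axons, had 47.5, 56.5 and 126 at P18, 98.2, 105 and 80.7 at P75, 92.6, 79.0 and 112 at 6 months, and 157, 144 and 143 at 24 months. P18 replicate 3 was well above the other 2 of its age, and all of 24 months were above all others. Robo3 rose by 1.07 ± 0.26 from P18 to 24 months (limma adjusted p = 0.00184).

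Robo4, known from endothelial cells, went the other way, and it is rare. Its means at the 4 ages were 33.0 ± 2.34, 27.0 ± 10.2, 10.6 ± 4.20 and 19.6 ± 2.48 (SD, n = 3). Robo4 fell by 1.28 ± 0.30 on the log2 scale from P75 to 6 months (limma adjusted p = 0.00196), with all libraries of 6 months below those of P75. The change from P18 to 24 months was -0.73 ± 0.30, a call that was lost without 24-month replicate 1 (-0.63). Of 11 markers of endothelium and mural cells, 4 rose and 2 fell from P75 to 6 months, beside 31.2% and 29.4% of all tested genes. The summed level of these markers was 1085.3 to 1264 at P75 and 969 to 1179 at 6 months. Their part in the fall of Robo4 was not tested.

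Between 6 and 24 months few calls rested on all libraries. Of the 14 guidance genes called, 11 were lost when 1 of the 12 libraries was left out, and Sema3c, Sema4d and Epha4 were kept each time. Between 5 and 18 genes were called in these fits, the fewest without 24-month replicate 2. Of those that fell, Sema6a (-0.34 ± 0.11) was lost without 6-month replicate 1 (-0.22), or 24-month replicate 1 (-0.28) or 2 (-0.32). Epha3 (-0.86 ± 0.31) was lost without 6-month replicate 1 (-0.67) or 2 (-0.94), or 24-month replicate 1 (-0.62). Ntn4 (-0.66 ± 0.21) was lost without 6-month replicate 1 (-0.50), or 24-month replicate 2 (-0.59), and Unc5b (-0.51 ± 0.16) without 6-month replicate 1 (-0.45) or 2 (-0.46), or 24-month replicate 1 (-0.40). Of those that rose, Plxna3 (0.37 ± 0.13) was lost without 6-month replicate 1 (0.33) or 2 (0.33), or 24-month replicate 2 (0.39) or 3 (0.32). Nrp1 (0.27 ± 0.11) was lost without 6-month replicate 2 (0.22) or 3 (0.25), or 24-month replicate 2 (0.24) or 3 (0.17), and Efna1 (0.42 ± 0.16) without 6-month replicate 1 (0.33) or 2 (0.45), or 24-month replicate 2 (0.45) or 3 (0.30). Epha7 (0.32 ± 0.10) was lost without 6-month replicate 2 (0.26), or 24-month replicate 2 (0.32) or 3 (0.28). Ntn5 (0.80 ± 0.28) was lost without 6-month replicate 1 (0.76) or 2 (0.85) or 3 (0.79), or 24-month replicate 2 (0.76) or 3 (0.62). Robo3 (0.65 ± 0.26) was lost without P75 replicate 2 (0.65), or 6-month replicate 1 (0.64) or 2 (0.53), or 24-month replicate 1 (0.61) or 2 (0.67) or 3 (0.68), and Robo4 (0.89 ± 0.30) without 6-month replicate 1 (0.87) or 3 (0.64), or 24-month replicate 2 (0.82) or 3 (0.86). These rises and falls were thus called in the fit over all 12 libraries but not in each smaller one. The calls of P18 to 24 months were steadier, with 2 of 59 lost in this way, Ntn3 (0.50 ± 0.24) without P18 replicate 1 (0.29), or 24-month replicate 2 (0.46) or 3 (0.35) and Robo4 (-0.73 ± 0.30) without 24-month replicate 1 (-0.63). Of the calls from P18 to P75, 12 of 44 were lost, among them Sema6d, Plxna1, Ephb2, Ephb4, Slit1 and Slit3. Of those from P75 to 6 months, 7 of 52 were lost, Efnb2 among them. How many calls of all tested genes were lost in this way was not counted.

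Other genes of the same pathways, 122 signaling partners of which 121 were tested, were counted in the same way. From P18 to 24 months 51 rose and 41 fell (42.1% and 33.9%), near the 34.7% and 34.3% of all tested genes, with a median log2 change of 0.04. From P75 to 6 months 57 rose and 14 fell (47.1% and 11.6%, against 31.2% and 29.4% of all tested genes). From 6 to 24 months 12 rose and 30 fell (9.92% and 24.8%, against 16.6% and 12.7%), where 8 rose and 15 fell without 24-month replicate 1 and likewise without 24-month replicate 2. From P18 to P75 37 rose and 40 fell (30.6% and 33.1%, against 25.9% and 22.9%), or 42 and 24 when libraries were scaled to the same total. Among partners of semaphorins and plexins, 12 of 32 rose from P18 to 24 months and 13 fell. Nrcam, an adhesion molecule of the neuropilin complex, rose by 1.51 ± 0.11 and Plxdc1, which carries a plexin-like domain, by 1.64 ± 0.12. Fyn, a kinase active downstream of plexins and in oligodendrocytes, changed by -1.34 ± 0.08, Rras, a GTPase on which plexins act, by -1.32 ± 0.13 and Dpysl5, a collapsin response mediator, by -1.16 ± 0.14. Dpysl2, a relative of it, fell from 14513 ± 1034 at P18 to 11966 ± 698 at 24 months, a change of -0.28 ± 0.10 (limma adjusted p = 0.0204). Arhgef11, a RhoGEF that binds plexin-B, followed Sema4d in direction, with -0.74 ± 0.19 from P18 to P75, 1.52 ± 0.19 between P75 and 6 months and -0.75 ± 0.19 from 6 to 24 months (limma adjusted p = 0.00504, 7.44e-06 and 0.0127). Rnd1, a GTPase that binds plexins, fell by 1.08 ± 0.11 from P18 to P75. Trem2 and Tyrobp, the microglial receptor and adaptor that associate with plexin-A1, rose by 1.03 ± 0.10 and 1.24 ± 0.12 from 6 to 24 months (limma adjusted p = 4.07e-05 and 3.65e-05).

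Of 27 ephrin and Eph partners, 7 rose and 9 fell from P18 to 24 months (25.9% and 33.3%), beside 34.7% and 34.3% of all tested genes. Ptpro, a phosphatase of Eph receptors, rose by 1.29 ± 0.11, Adam10, a protease that cleaves ephrins, by 1.25 ± 0.09 and the phosphatase gene Ptpn11 by 1.13 ± 0.19. Of 27 netrin partners, 12 rose and 7 fell (44.4% and 25.9%). Among these Neo1, which encodes the DCC relative neogenin, rose by 0.75 ± 0.09 from P75 to 6 months (limma adjusted p = 5.36e-06), and Rgmb, a neogenin ligand, rose by 1.35 ± 0.14 in the same interval and fell by 0.66 ± 0.14 from 6 to 24 months. The netrin-G genes Ntng1 and Ntng2 rose by 1.68 ± 0.10 from P18 to 24 months and 1.15 ± 0.16 from P75 to 6 months. Of 23 Slit and Robo partners, 10 rose and 11 fell over the whole span (43.5% and 47.8%). Dag1, which encodes the Slit-binding dystroglycan, had 119 ± 6.68, 74.5 ± 17.5, 525 ± 106 and 258 ± 48.1 at the 4 ages (SD, n = 3). Its log2 change of 2.81 ± 0.18 from P75 to 6 months (limma adjusted p = 2.70e-08) was near that of Ntn4. Flrt1 and Flrt3, Robo-interacting membrane proteins, rose by 1.34 ± 0.20 and 1.55 ± 0.11 from P18 to 24 months and Sdc2, a heparan sulfate proteoglycan, by 1.31 ± 0.10.

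The myelin-associated inhibitors of axon growth and their receptors were 12 of these partners. Of the 12, 10 rose and 1 fell from P18 to 24 months, beside 34.7% and 34.3% of all tested genes, with a median log2 change of 1.13. Rtn4, which encodes Nogo, rose from 8482 ± 464 to 21575 ± 1436, Omg, which encodes oligodendrocyte-myelin glycoprotein, from 2491 ± 97.4 to 5326 ± 225 and Rtn4r, their receptor, from 503 ± 178 to 1214 ± 210.4 (SD, n = 3). Rtn4rl1, a relative of this receptor, rose by 1.54 ± 0.12. Rtn4rl2, another relative, and the co-receptor gene Ngfr rose by 1.32 ± 0.33 and 1.94 ± 0.26, but had means under 100 at P18 and 24 months. They are named for their rises from P75 to 6 months, by 2.63 and 1.64. Mag, an adhesion molecule of the inner myelin sheath, was the 1 that fell, from 7525 ± 1300.2 to 6151 ± 627 (log2 change -0.28 ± 0.12, limma adjusted p = 0.0575). Mag fell from P18 to P75 (-0.64 ± 0.12) and rose from P75 to 6 months (0.51 ± 0.12), as Sema4d, Sema5a and Sema6a did.

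**Figure D5:**
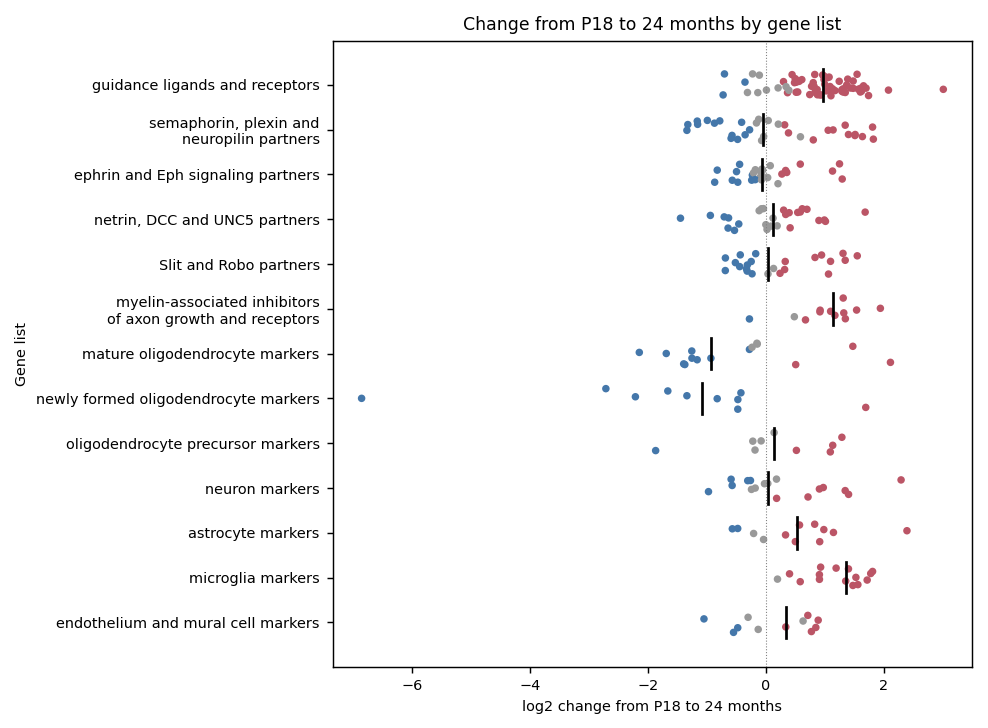
log2 change from P18 to 24 months of the guidance genes, of 5 lists of pathway partners and of 7 lists of cell type markers. Each point is 1 tested gene, red if it rose, blue if it fell and grey if not called at a limma adjusted p under 0.1, and the vertical bar is the median of the list. The guidance genes (median 0.96), the myelin-associated inhibitors (1.13) and the microglia markers (1.35) lie mostly to the right of 0, and the mature (-0.93) and newly formed (-1.08) oligodendrocyte markers mostly to the left.

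Markers of other cell types changed over the same ages. Of all tested genes, 34.7% rose and 34.3% fell from P18 to 24 months, and 31.2% and 29.4% from P75 to 6 months. Of 17 neuron markers 7 rose and 5 fell from P18 to 24 months (median 0.03), and their summed level was 240338 to 286694 at P18, 266699 to 299778 at P75, 279819 to 295447 at 6 months, and at 24 months 252794 to 269665. From P75 to 6 months, which had the most guidance calls of the 3 neighbouring intervals, 13 of the 17 rose and 3 fell (median 0.39). Snap25, which fell, was the largest part of the neuron sums, with means of 141430 at P75 and 88328 at 6 months. In the same interval 6 of 9 oligodendrocyte precursor markers rose and 1 fell (median 0.30), 8 of 15 microglia markers rose and 2 fell (median 0.30), 4 of 12 astrocyte markers rose and 2 fell (median 0.08), and 2 of 10 markers of newly formed oligodendrocytes rose and 3 fell (median -0.06). Of 12 astrocyte markers 8 rose and 2 fell from P18 to 24 months (median 0.53), with sums of 113148 to 155111 and 154488 to 162629. Microglia markers rose in 14 of 15 cases (median 1.35), from a sum of 7113 to 8034 at P18 to 17725 to 21801 at 24 months. Oligodendrocyte precursor markers rose in 4 of 9 cases and fell in 1 (median 0.14), and of 11 endothelial and mural markers 5 rose and 3 fell (median 0.34). Mature oligodendrocyte markers fell in 9 of 15 cases and rose in 3, Gjb1, Trf and Apod (median -0.93). Their sums were 2501880 to 6236900 at P18 and 1521560 to 2119000 at 24 months. Mbp made up most of these sums. None of these markers was at 0 in all libraries of an age, and the lowest was Hgf, an astrocyte marker, with 3.89 at P18. Their part in the rise of the guidance genes was not tested.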

How the data were processed

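Myelin RNA of 12 libraries (P18, P75, 6 months and 24 months, 3 each) was analysed. The authors aligned reads to mm9 with TopHat2 (version 2.0.8 in the submitters' processing notes, another in the methods), counted them per gene with HTSeq 0.5.4p1 (SAMtools 0.1.19) and divided counts by DESeq size factors, and the deposited signal is this normalized read count. Whether counting used strand is not given in the sources used here. Dividing each value by that of 1 read gave whole reads for 100% of values (within 0.1 read), but in 3 libraries 1 read is worth 0.991 to 1.004, where whole reads cannot be told from rounded values. The table held 0 columns of other samples.

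log2(normalized read count + 1) of genes with a mean of at least 10 was fitted with limma 3.58.1 (R 4.3.3; trend, empirical Bayes) over all 12 libraries, with calls at a Benjamini-Hochberg adjusted p under 0.1. edgeR 4.0.16 and DESeq2 1.42.0 on the recovered whole reads were alternatives, beside other pseudocounts, filters, scalings, a replicate block and each library left out. One alternative, the block in a fit of P75 and 6 months alone, was added after seeing the data. The fitting functions were tested on simulated data. No exact permutation test is given, since 3 against 3 libraries cannot go below p = 0.1.

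The members, the lists of partners and markers and the tests were chosen with earlier results of these data known. Values of all libraries are given for members called with a change over 2-fold in a comparison and a mean of at least 50 at one of its ages, for the 2 highest per kb in each of 5 family groups, and for members with a known role in oligodendrocytes or myelin. Partners are named where called over 2-fold with a mean of at least 100, at most 3 per direction, list and comparison, plus Mag, Omg, Rtn4, Neo1 and Dpysl2. Gene positions and merged exons are from GENCODE on NCBIM37, promoters from RefSeq (GRCm38.p6, 250 bases before the start; genes on chromosome 18 were not considered for display).

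Samples with the same replicate number deviated together between P75 and 6 months (r across genes of 0.16, 0.10 and 0.19). In no other comparison did all 3 such pairs (-0.03, -0.15 and -0.14 for P18 and P75, -0.21, -0.07 and -0.06 for 6 and 24 months, -0.05, 0.03 and 0.02 for P18 and 24 months). Values of this size also occurred between unlike numbers, with 0.15, 0.11 and 0.23 between P18 and P75 and up to 0.16 between 6 and 24 months. The r values thus do not settle whether samples were paired. The labels do not say that numbers mark shared animals or days.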

Additional observations from a re-analysis of the deposited data

How the results depend on the processing

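With few exceptions the counts of guidance genes called changed stayed within 1.5 times of those given. From 6 to 24 months 14 were called, but 9 when libraries were scaled to the same total, 8 at a false discovery rate of 0.05 and between 5 and 18 when 1 library was left out, while the count over 2-fold went from 0 to between 0 and 1. The pathway partners called in that interval numbered 42, and between 23 and 47 with 1 library left out. From P75 to 6 months 10 genes changed over 2-fold, and 6 when only genes with a mean above 100 were tested, where 55 guidance genes remained in the test. Leaving out 1 library gave 39 to 46, 45 to 55 and 58 to 61 guidance genes from P18 to P75, P75 to 6 months and P18 to 24 months. A replicate block gave 42, 51, 14 and 59 called guidance genes in the 4 comparisons, against 44, 52, 14 and 59 without it, and 56 from P75 to 6 months in a blocked fit of those ages alone. That blocked fit, chosen after seeing the data, called Sema5b, Plxna3, Efna2 and Epha4 as well (limma adjusted p of 0.0377, 0.0802, 0.0885 and 0.0378). The block over all libraries lost Plxna1 and Epha10 from P18 to P75 (0.118 and 0.121), Epha2 from P75 to 6 months (0.110) and Nrp1 from 6 to 24 months (0.113), where it added Robo2 (0.0972), and it changed no other call of a guidance gene. edgeR called 43, 52, 16 and 59 and DESeq2 41, 50, 16 and 59, both adding Sema3d and Robo2 from 6 to 24 months. Genes with few reads, such as Epha2, Epha10, Ntn5 and Robo4, are limited by depth, and 3 libraries per age limit all comparisons.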
